A study of Equus caballus with 19 samples.

Results

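Equine tenocytes from 5 tendon cell lines were cultured in collagen gels with or without interleukin-1β (IL-1β), and their RNA was compared line by line. The comparison took in 10 of the 19 sequenced libraries of the study, namely every first-batch library: 1 control and 1 IL-1β library from each of lines 1 to 5. The lines came from the superficial digital flexor tendon of Thoroughbred horses with no genetic change, each line from 1 donor whose age the labels do not give, and were used at passage 3 to 7. Cells in both groups were embedded in gels of bovine type I collagen for 14 days, the treated gels with 1 nM IL-1β in the medium and the control gels in the same medium without cytokine. The other 9 libraries form a second batch of 3 further lines, of which the 6 control and IL-1β libraries are set beside the first batch at the end. Of 29196 gene names in the deposited table, 14719 reached at least 10 normalised counts in at least 5 of the 10 libraries and were tested. The gels held isolated tendon cells, with no vessels, nerves or blood supply.

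IL-1β is an early inflammatory cytokine of injured tendon. It binds the IL-1 receptor and signals through the adaptor MyD88 to the transcription factor NF-κB and to the MAP kinases, which switch on cytokines and matrix-degrading proteases. Tenocytes are the fibroblasts that build and maintain tendon, a tissue of aligned type I collagen, small proteoglycans and glycoproteins, and they keep the fibres under tension by contracting against them. Cytokines, chemokines and matrix metalloproteinases (MMPs) were set aside here, and the account below follows the other processes: matrix assembly, contraction, developmental signalling, receptors for nerve and vessel mediators, nutrient and metal transport, cell division and antigen presentation.

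Library totals were alike, at 43393903 to 47482714 normalised counts in the controls and 43776328 to 49197980 with IL-1β. The log2 values of 2 control lines correlated at 0.91 to 0.98 over the genes tested, and those of 2 IL-1β lines at 0.93 to 0.97, so no 2 libraries held the same values. Of the tenocyte markers, COL1A1, COL1A2, FN1, BGN, DCN and LUM were high in every library, while tenomodulin (TNMD) was listed at 0 in all 10. Markers of other cells were low with some exceptions. Of 15 leukocyte markers 3 passed the filter, CD68 and ITGAX among them, PTPRC (CD45) reached at most 3.64 normalised counts, CD3E and TYROBP were listed at 0 in all 10, and CSF1R in 9 of the 10. CD14, a monocyte marker below the filter, was at 17.4, 0, 0, 0 and 1947 in the controls and 0, 0, 0, 71.4 and 2811 with IL-1β, so it was high in both libraries of line 5. The leukocyte list summed to 598, 636, 346, 414 and 2400.3 normalised counts in the controls and 1842, 949, 602, 642 and 4073 with IL-1β. Of the other marker lists, 2 of 8 endothelial, 1 of 5 Schwann cell, 2 of 5 epithelial and 5 of 6 pericyte and smooth muscle genes were tested. Of all these markers of other cells, CD68 (a lysosomal protein of macrophages that fibroblasts also make) and PECAM1 rose (2.64 ± 0.19 and 1.68 ± 0.55 on the log2 scale), PECAM1 not being DE without line 1, 3, 4 or 5 or without the line term (adjusted p 0.054 to 0.12), and the pericyte and epithelial genes are given with the results they touch. The other endothelial marker tested, VWF, had a log2-fold change of -1.53 and was not DE (limma, adjusted p = 0.056). Without line 1, 1 of the 2 tested endothelial genes fell and none rose. The control library of line 1 had high values of interferon-induced and MHC class II genes. Counts for the interferon and antigen presentation lists are therefore given with and without that line.

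IL-1β changed 2386 of 14719 genes (16.2%), where a differentially expressed (DE) gene had an adjusted p below 0.05 and a log2-fold change of at least 1 in either direction. More DE genes fell than rose: 1503 (10.2%) were downregulated and 883 (6.0%) were upregulated. The median log2-fold change was -0.0034 over all genes tested, 1.74 over the upregulated genes and -1.68 over the downregulated genes. Without line 1, 2222 genes were DE, and without the line term 1885. The change had the same sign in all 5 lines for 2271 DE genes. A number in brackets after a gene, and each number given for a gene without another unit, is its log2-fold change. All errors after ± are moderated standard errors of the log2-fold change, from the limma fit to the 5 line pairs. The variance behind them is drawn towards a trend over all genes tested, so they are not the plain spread of the 5 pairs. Adjusted p-values come from limma with Benjamini-Hochberg adjustment over all genes tested. Of the genes tested, 49 were below 10 in every control and 49 were below 10 in every IL-1β library: these could pass the filter only through the group in which they were high, and all of them were DE.

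To see which processes moved, 34 lists holding 660 genes were described by their counts. Of these genes, 636 were in the table and 570 were tested, of which 2 passed the filter only through the IL-1β libraries and 1 only through the controls. Across them, 76 rose (13.3%) and 123 fell (21.6%), against the 6.0% and 10.2% of all genes. The share differed widely between lists, from mitosis and tendon lineage genes, 75% of each of which fell, to antigen presentation genes, of which none was DE by limma. Zinc, iron and copper handling, prostaglandin and vasoactive peptide genes had the highest upregulated shares, at 50%, 46.7% and 40.00%.

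**Figure D1:**
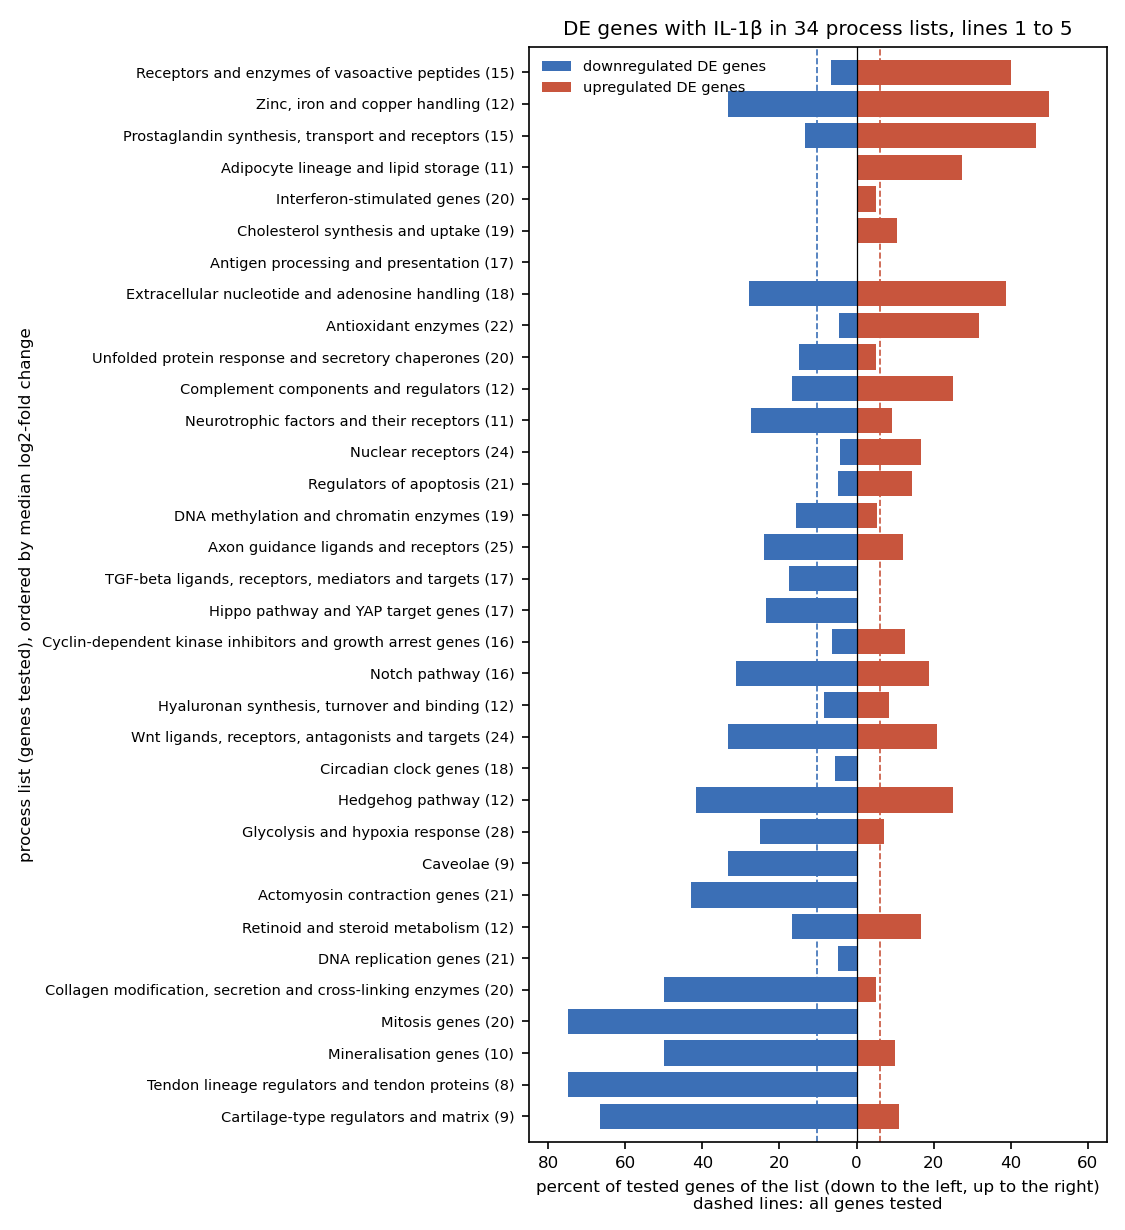
Percent of the tested genes of each process list (y axis, with the number tested) that were DE with IL-1β in lines 1 to 5; bars to the left are downregulated and bars to the right upregulated genes, and dashed lines mark the 10.2% and 6.0% of all genes tested. Lists are ordered by their median log2-fold change, from cartilage-type genes at -3.71 to vasoactive peptide genes at 1.19.

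The largest rises beyond the cytokines included transporters, receptors and secreted proteins, most of them low in the controls. SLC7A2, a transporter of arginine and other cationic amino acids, stood at 81.9, 156, 42.2, 174 and 91.3 normalised counts in the controls of lines 1 to 5 and at 24774, 36747, 60337, 51109.5 and 34566 with IL-1β. Every IL-1β value was over 100 times every control value, and the log2-fold change was 8.66 ± 0.36 (adjusted p = 0.00013). GPR84, a receptor for medium-chain fatty acids, went from 0.870, 6.96, 2.79, 1.93 and 1.10 to 734, 638, 640.2, 517 and 448 normalised counts (log2-fold change 7.51 ± 0.34). No control reached 7 normalised counts, and every treated library was far above that. NRG1, the ERBB receptor ligand neuregulin 1, went from 149.9, 275, 5.34, 14.03 and 15.1 to 14663, 5535, 3174, 3557 and 8091 (log2-fold change 7.35 ± 0.68), and here the control values of lines 1 and 2 were well above those of lines 3 to 5. IL13RA2, a decoy receptor for interleukin-13, was at 1.78, 0, 2.77, 0 and 0 in the controls and 751, 838, 686, 412 and 1418 with IL-1β. MS4A7, a membrane protein best known in macrophages, was at 4.39, 0, 0, 0 and 0 and 2970.3, 193, 845, 120.1 and 367. For these 2 genes the fitted changes, 8.89 ± 0.46 and 8.37 ± 0.44, depend on the pseudocount because the controls were at or near 0. The other 10 of the 15 largest rises were SAA1, FDCSP, PTGS2, SLC16A6, SRGN, PLEKHS1, SLC24A4, PTGDR, CTSC and RHCG, with log2-fold changes from 7.01 down to 5.25. SAA1 encodes an acute-phase protein of a family of near-identical copies, so its value is uncertain, whereas SRGN (serglycin, a granule proteoglycan) and CTSC (cathepsin C, an activator of serine proteases) rose (log2-fold changes 5.75 and 5.27).

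The largest falls included genes of the matrix and of adhesion to it. ITGA11, the α11 chain of a collagen-binding integrin, stood at 2896, 3793, 43822, 21968 and 13281 normalised counts in the controls and at 1.36, 88.5, 212, 297 and 38.8 with IL-1β, with no overlap and a log2-fold change of -7.59 ± 0.66 (adjusted p = 0.00049). The controls differed among themselves by more than 10 times, with lines 3 and 4 highest, and every treated value was below 3% of the control of the same line. Of the leucine-rich proteoglycans that bind collagen fibrils, asporin (ASPN), osteoglycin (OGN) and osteomodulin (OMD) were among the 15 largest falls, with log2-fold changes of -7.73, -7.06 and -5.70. ACAN, ITGBL1, FGF19, LMCD1, CRABP1, PRG4, KRT19, FNDC1, APCDD1L, PKP1 and AQP1 made up the rest, from -7.55 to -5.58. PKP1 (plakophilin 1, a desmosome protein) and KRT19 (keratin 19), both best known in epithelia, fell along with E-cadherin (CDH1), which went from 1413, 2738, 3904, 2535 and 2232 to 20.5, 94.2, 215, 544 and 24.2 normalised counts (log2-fold change -4.75 ± 0.59). The groups did not overlap. Of the other epithelial markers, EPCAM was at or near 0 in both groups and CLDN4 (-1.23) was not DE. KRT14 and KRT5, below the filter, reached at most 47.1 and 14.4 normalised counts in the controls and were listed at 0 in every IL-1β library.

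The 10 genes with the lowest p-values included ZC3H12A and AGTRAP. ZC3H12A, the ribonuclease Regnase-1 that degrades inflammatory transcripts, went from 750.5, 911, 825, 642 and 829 to 12685, 9908, 9744, 9159 and 10115 normalised counts, a log2-fold change of 3.70 ± 0.10 (adjusted p = 7.1e-05). Within each group its values stayed within 1.5 times of each other. AGTRAP, which binds the angiotensin II receptor, rose with a log2-fold change of 2.47 ± 0.072 (adjusted p = 7.1e-05). The others were C1H15orf48, ARSJ (arylsulfatase J), SLC7A2, IL4R (the shared receptor chain for interleukins 4 and 13), NFKBIZ, IKBKE, GPR84 and FGF19, of which only FGF19 fell. GPR84 and FGF19 were below 10 normalised counts in every library of 1 group, so they passed the filter only through the group in which they were high. NFKBIZ and IKBKE, a regulator and a kinase of the NF-κB pathway, rose (log2-fold changes 3.40 ± 0.15 and 2.04 ± 0.09), as did C1H15orf48 (5.05 ± 0.19), ARSJ (2.07 ± 0.081) and IL4R (1.93 ± 0.082).

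Some genes switched between presence and near absence. In all, 4 genes were at or below 3 normalised counts in all 5 controls and at 10 or more in all 5 IL-1β libraries, and 6 genes showed the reverse. Those that appeared were IL13RA2, PTGDS (the synthase of prostaglandin D2), SOGA3 and MTMR7 (a lipid phosphatase). PTGDS was at 1.72, 0, 0, 0 and 0 in the controls and 13.3, 65.5, 44.5, 43.3 and 93.9 with IL-1β, with line 1 the lowest of the treated libraries. Those that disappeared were FGF19 (a hormone-like fibroblast growth factor), RNASE10, CLDN2 (a tight junction protein), ZDBF2, TRPM8 (the cold-sensing ion channel) and TUBB1. FGF19 went from 103, 98.1, 149, 165 and 176 to 0, 0, 1.04, 0 and 0, and CLDN2 from 75.8, 22.6, 50.01, 12.6 and 32.9 to 0 in every treated library. Levels were low for most of these genes.

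**Figure D2:**
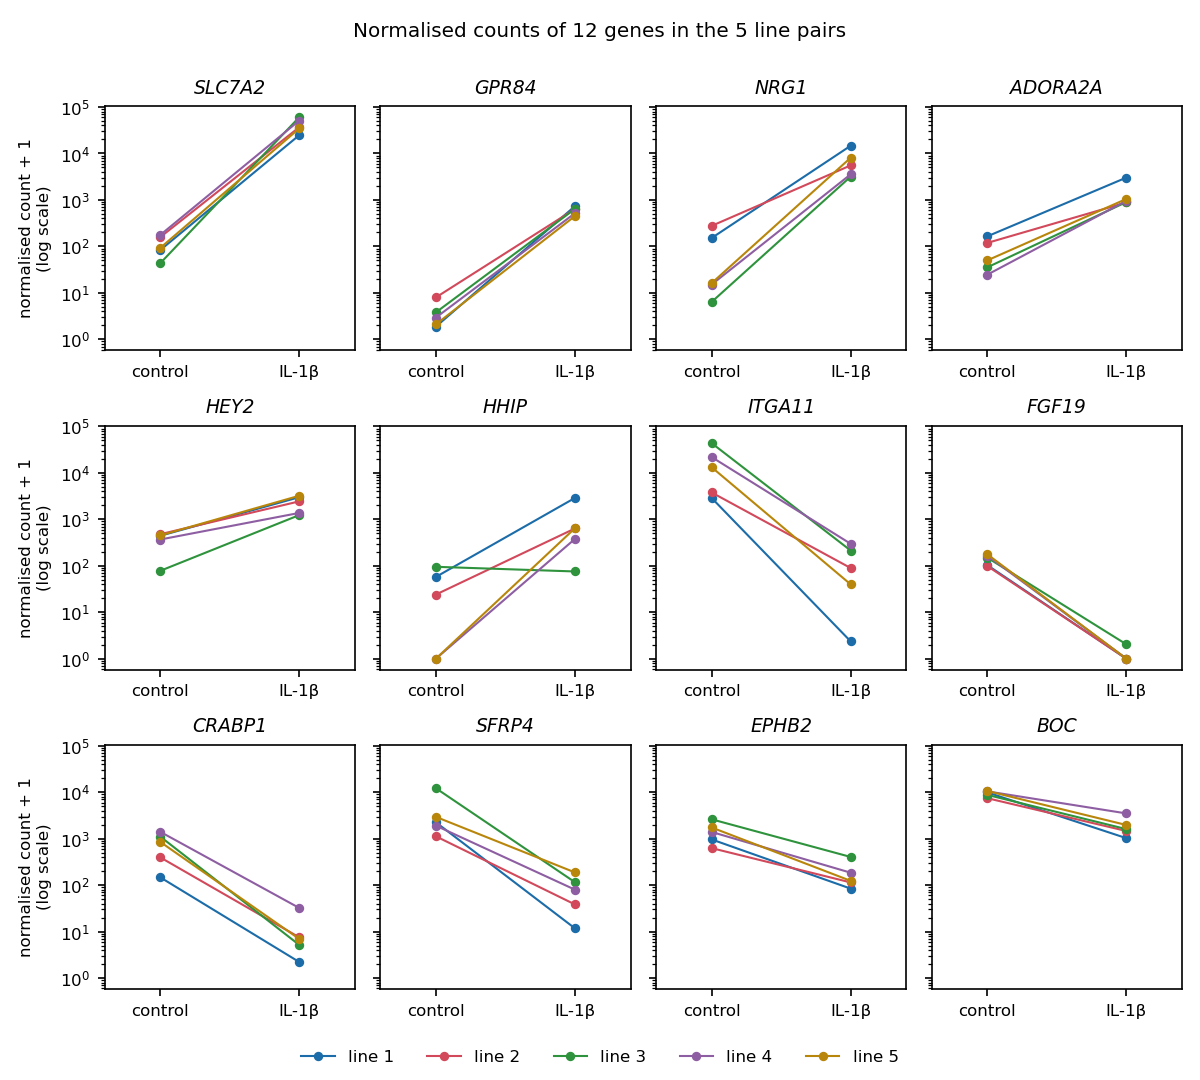
Normalised counts plus 1 (y axis, log scale) of 12 genes in the control and IL-1β library of each line, joined by a line for each of the 5 tenocyte lines. SLC7A2 and GPR84 rose and FGF19, CRABP1 and BOC fell in every line, whereas HHIP rose in 4 lines and not in line 3.

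Genes of the tendon lineage and of cartilage-type matrix fell. Of 8 tested genes of the tendon lineage list, 6 fell and none rose (median log2-fold change -3.26). They included the transcription factors SCX, MKX and EGR2 and the matrix proteins THBS2, THBS4 and FMOD. EGR2, a growth-factor-induced factor that drives collagen genes, went from 441, 126, 128, 162 and 178 to 13.2, 14.1, 73.4, 13.02 and 5.90 normalised counts (log2-fold change -3.41 ± 0.60). Its lowest control was above its highest treated value. EGR1 (-0.69) was not DE. Of 9 tested tenocyte markers, COL1A1 and COL1A2, the chains of type I collagen, and FN1 (fibronectin) fell as well (log2-fold changes -1.83 ± 0.29, -1.33 ± 0.30 and -1.36 ± 0.22), while BGN, DCN and LUM were not DE, at -0.36, 0.73 and 0.91. In the cartilage-type list 6 of 9 tested genes fell (median -3.71), with aggrecan (ACAN) at -7.55, lubricin (PRG4) at -6.19, SOX6 at -3.92 and COL11A1 at -3.71. The list's one rise was SOX5, the close partner of SOX6, which went from 74.5, 53.99, 65.3, 92.5 and 43.2 to 984, 439, 522, 670.2 and 698 normalised counts, a log2-fold change of 3.30 ± 0.21 (adjusted p = 0.00021). SOX5 and SOX6 thus moved in opposite directions in these cells. Among mineralisation genes 5 of 10 fell and 1 rose. The pyrophosphate exporter ANKH fell (log2-fold change -3.14 ± 0.26), the mineralisation inhibitor MGP (-3.06 ± 0.74) and the bone regulator DLX5 (-3.01 ± 0.34), while ALPL, the phosphatase that breaks down pyrophosphate, rose from 28548, 26329.9, 356, 2327 and 3608 to 74317, 40600.2, 10487, 27001 and 78676 normalised counts (log2-fold change 2.97 ± 0.65). The pyrophosphate-making ectoenzyme ENPP1 fell as well (-3.04 ± 0.26). THBS4 was not DE without line 1, 3 or 5 (adjusted p 0.055 to 0.091), nor was FMOD without line 4 or without the line term (adjusted p 0.058 to 0.18), nor was COL1A2 without line 5 (adjusted p = 0.054). ALPL was not DE without the line term (adjusted p = 0.074).

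Enzymes that process collagen fell in part. Of 20 tested genes for collagen modification, secretion and cross-linking, 10 fell and 1 rose (median -1.04). The falls took in 4 of the 5 lysyl oxidases, which cross-link collagen: LOXL4 (-3.43 ± 0.21), LOXL2 (-3.35 ± 0.32), LOX (-2.32 ± 0.24) and LOXL1 (-1.17 ± 0.20), but LOXL3 was at -0.35. The propeptide-removing enzymes ADAMTS14 and ADAMTS2 fell (log2-fold changes -2.41 and -1.35), and PCOLCE, an enhancer of C-propeptide removal, fell as well (-2.28). BMP1, the C-propeptide protease itself, was at 0.30. PCOLCE2, the relative of PCOLCE, was the exception and rose (log2-fold change 1.69 ± 0.22). The collagen chaperone SERPINH1 (-0.38) was not DE. Of 12 hyaluronan genes 1 rose and 1 fell, or 8.33% each, against 6.0% and 10.2% of all genes. The hyaluronan-linking protein TNFAIP6 rose from 2408, 3464, 2623, 3257 and 2448 to 30907, 16765, 23746, 16070.1 and 14187 normalised counts. The receptor LAYN fell (log2-fold change -1.60 ± 0.28), and the list had 2 falls without line 1, 4 or 5. LOXL1 was not DE without line 1 (log2-fold change of -0.93).

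Of the contractile and membrane-mechanics genes tested 42.9% and 33.3% fell, against 10.2% of all genes, and none rose, against 6.0%. Of 21 tested actomyosin genes 9 fell (median -0.59), among them desmin (DES), which went from 1755, 1079, 1570.3, 1677 and 2214 to 57.5, 144, 29.4, 189 and 149.9 normalised counts (log2-fold change -4.10 ± 0.42, adjusted p = 0.00078). Every treated DES value was below 20% of the lowest control. SYNPO2, LMOD1 and TAGLN, an actin-bundling, an actin-nucleating and an actin-binding protein, fell (log2-fold changes -4.20, -2.72 and -1.90). ACTA2 fell (log2-fold change -1.27 ± 0.20), but the regulator SRF (0.088) was not DE. In the caveolae, flask-shaped pits that buffer membrane tension, the coat genes CAVIN1, CAVIN3 and EHD2 fell (log2-fold changes -1.72 ± 0.16, -1.40 ± 0.12 and -1.31 ± 0.14), so 3 of 9 genes fell. CAVIN1 stood at 78439.8, 66829, 67722, 66011 and 68459 in the controls and 19705, 21440.2, 14963, 29178 and 22723 with IL-1β, a narrow spread in both groups. The pericyte and smooth muscle markers showed the same direction for CSPG4 (-3.80), RGS5 (-1.68), MCAM (-1.63) and MYH11 (-1.001), and ABCC9 rose (log2-fold change 3.36 ± 0.85) from values listed at 0 in 3 controls. Only 3 of the 5 pericyte genes were DE without the line term. MYH11 was not DE without the line term (adjusted p = 0.12) and without line 3 (log2-fold change of -0.71), nor was ABCC9 without line 1 or without the line term (adjusted p 0.052 to 0.13).

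Receptors, ligands and regulators of the developmental pathways moved in both directions. In the Notch pathway, where ligands on 1 cell activate receptors on the next, 5 of 16 genes fell and 3 rose. The ligand JAG1 went from 950.4, 785, 785, 1289 and 1908 to 92.98, 164, 297, 326 and 245 normalised counts (log2-fold change -2.39 ± 0.28) and its groups did not overlap. JAG2 (-1.70), the receptor NOTCH3 (-1.87), the glycosyltransferase LFNG (-1.48) and the target gene HES4 (-2.10) also fell. The ligand DLL1 (1.60), the receptor NOTCH4 (1.19) and the target HEY2 rose. HEY2 went from 441, 477, 76.8, 366 and 449 to 2993, 2435, 1233, 1373 and 3218 (log2-fold change 2.77 ± 0.28, adjusted p = 0.00073), while its relative HEYL was at -1.11 and HES1 at -0.37, neither of them DE. HEYL was DE without line 2 (-1.82, adjusted p = 0.041), and the list had 3 falls without line 5. JAG2 was not DE without line 2, 3, 4 or 5 (adjusted p 0.073 to 0.11), nor was HES4 without line 5 (adjusted p = 0.055).

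Hedgehog genes moved in both directions. The co-receptors BOC, GAS1 and CDON fell (log2-fold changes -2.42 ± 0.21, -2.28 ± 0.20 and -1.46 ± 0.16), and the transcription factors GLI1 and GLI2 (-2.58 ± 0.31 and -1.94 ± 0.49), which gave 5 falls in 12 genes, beside 3 rises. BOC went from 9957, 7461, 8788, 10475 and 10660.0 to 1028, 1466, 1608, 3506 and 1973 normalised counts and the groups did not overlap. The rises included the ligand DHH (1.11) and the Hedgehog-binding inhibitor HHIP, and 1 gene of the list rose without line 4 or without line 5. HHIP was at 56.5, 23.02, 94.1, 0 and 0 in the controls and 2886, 635, 74.5, 378 and 643 with IL-1β, with a log2-fold change of 5.59 ± 1.33. It was higher in 4 of 5 lines and the groups overlapped through line 3. The receptors PTCH1 (0.18) and SMO (0.069) were not DE. GLI2 was not DE without line 1 (adjusted p = 0.055), nor was DHH without line 4 (log2-fold change of 0.98), nor was HHIP without line 4 or 5 (adjusted p = 0.051).

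In the Wnt pathway 8 of 24 genes fell and 5 rose. All 5 rises were 4 ligands and 1 transcription factor: WNT2 (3.21 ± 0.47), WNT11 (1.92 ± 0.24), WNT9A (1.48 ± 0.21), WNT5A (1.44 ± 0.44) and TCF7 (1.56 ± 0.36). The falls were 5 secreted antagonists, SFRP4, SFRP2, SFRP1, DKK1 and DKK2, and 3 receptors, ROR1, ROR2 and FZD7. SFRP4 went from 2259, 1127, 12227, 1912 and 2955 to 10.8, 37.5, 115, 79.1 and 187 normalised counts (log2-fold change -5.55 ± 0.54), and every treated value was below 20% of the lowest control. The pathway's feedback gene AXIN2 (-0.29) and the antagonist DKK3 (-0.23) were not DE. Without the line term 3 genes of the list rose. WNT2 was not DE without the line term (adjusted p = 0.055), nor was WNT5A without line 3, 4 or 5 or without the line term (adjusted p 0.073 to 0.36), nor was SFRP1 without the line term (adjusted p = 0.35) and without line 1 or 3 (log2-fold change of -0.98). DKK1 was not DE without line 2 or 3 (adjusted p 0.0501 to 0.056).

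In the TGF-β and Hippo lists 17.6% and 23.5% of the genes tested fell, against 10.2% of all genes. No gene of either list rose with all lines, against 6.0% of all genes, and lists of 17 are too short to read a result from that. In the TGF-β list 3 of 17 genes fell, which were LTBP2 (-3.02 ± 0.19), a matrix protein of the latent TGF-β binding family, the target TGFBI (-2.45 ± 0.49) and the ligand TGFB1 (-1.10 ± 0.25). The mediators SMAD2 and SMAD3 lay between -0.24 and 0.35. In the Hippo list 4 of 17 fell: TEAD4 (-1.34 ± 0.12), AMOT (-1.31 ± 0.15), SAV1 (-1.31 ± 0.10) and the YAP target ANKRD1 (-1.56 ± 0.42). YAP1 and WWTR1 themselves were at -0.028 and 0.045. CTGF, a target of both pathways that the table carries under its older symbol and that was added after its value was seen, fell (log2-fold change -1.85 ± 0.16). TGFB1 was not DE without line 1 or 5 (log2-fold change from -0.98 to -0.94), nor was ANKRD1 without line 3 or 5 or without the line term (adjusted p 0.062 to 0.086).

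Genes that guide nerves moved in these nerve-free cultures. The neurotrophin receptor NTRK2 and the GDNF co-receptor GFRA1 fell (log2-fold changes -4.03 ± 0.42 and -3.40 ± 0.28), as did the sorting receptor SORT1 (-1.58 ± 0.21). BDNF (0.19) and GDNF (0.14) were not DE, and of 11 neurotrophic factor genes 1 rose and 3 fell (median 0.19), with 2 rises without line 2. That is 9.09% up and 27.3% down with all lines, against 6.0% and 10.2% of all genes. Of 25 axon guidance genes 3 rose and 6 fell, or 12% and 24% against 6.0% and 10.2% of all genes. The semaphorin SEMA5A went from 15.9, 34.96, 19.6, 17.4 and 19.6 to 665, 159, 196, 162 and 327 (log2-fold change 3.57 ± 0.43), with line 1 the highest. SEMA6D and SEMA3F rose (log2-fold changes 1.62 and 1.26), whereas SEMA3B, the ephrin receptor EPHB2 and the semaphorin receptor PLXNA2 fell (log2-fold changes -2.12 ± 0.34, -3.08 ± 0.21 and -1.84 ± 0.18). SORT1 was not DE without the line term (adjusted p = 0.14).

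Receptors for adenosine, nucleotides, endothelin, bradykinin and prostaglandins rose in several lists. Extracellular ATP is cut stepwise to adenosine by ectoenzymes, and both act on their own receptors. Of 18 genes in this list 7 rose and 5 fell. Of the rises 1 passed the filter only through the IL-1β libraries. The receptors ADORA2A, ADORA2B and ADORA1 for adenosine and P2RY1 and P2RY2 for nucleotides rose (log2-fold changes 4.29 ± 0.32, 2.32 ± 0.24, 1.32 ± 0.38, 2.49 ± 0.50 and 1.94 ± 0.52). ADORA2A went from 163, 118, 34.4, 23.6 and 48.9 to 3025, 881, 899.6, 954 and 1049 normalised counts without overlap. The ectoenzyme NT5E (CD73), which makes adenosine, the adenosine transporter SLC29A1 and the channel P2RX7 fell (log2-fold changes -1.59 ± 0.18, -2.33 ± 0.36 and -2.24 ± 0.36). ENPP2 (autotaxin, which makes lysophosphatidic acid) rose (log2-fold change 4.27 ± 1.02) but hardly changed in line 1, whose values were 53.7 and 55.1. Without line 4, 4 genes of the list rose. ADORA1 was not DE without line 4 or 5 or without the line term (adjusted p 0.075 to 0.17) and without line 3 (log2-fold change of 0.88), nor was P2RY2 without line 2 or 4 (adjusted p 0.0502 to 0.061), nor was ENPP2 without line 4 (adjusted p = 0.053).

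Of 15 genes for vasoactive peptides 6 rose and 1 fell (median 1.19). The endothelin receptors EDNRA and EDNRB rose (log2-fold changes 2.68 ± 0.33 and 3.21 ± 0.64), the endothelin-converting enzyme ECE1 (1.41 ± 0.33), the bradykinin receptors BDKRB1 and BDKRB2 (1.34 and 1.19) and the adrenomedullin receptor CALCRL (1.14), while the ligand endothelin 1 (EDN1) fell (log2-fold change -1.72 ± 0.53). EDNRA went from 3219, 1889, 493, 1689 and 1299 to 10335, 7414, 8458, 10632 and 10179 normalised counts and did not overlap, whereas EDNRB did overlap because the line 1 control, at 5012, was above the line 3 treated value. Only 3 of these genes were DE without line 5 and 3 without the line term. ECE1 was not DE without line 5 or without the line term (adjusted p 0.053 to 0.095), nor was BDKRB1 without line 5 or without the line term (adjusted p 0.063 to 0.082), nor was BDKRB2 without the line term (adjusted p = 0.15). CALCRL was not DE without line 2, 3, 4 or 5 or without the line term (adjusted p 0.056 to 0.46), nor was EDN1 without line 1, 2, 4 or 5 (adjusted p 0.07 to 0.095).

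Prostaglandins are made from arachidonic acid by phospholipases, cyclooxygenases and synthases, and 7 of 15 genes of their list rose while 2 fell. Of the rises 1, PTGDS, passed the filter only through the IL-1β libraries. The inducible cyclooxygenase PTGS2, the phospholipases PLA2G2A and PLA2G4A and the synthases PTGDS and PTGES rose (log2-fold changes 6.18 ± 1.04, 5.07 ± 0.45, 2.52 ± 0.41, 5.20 ± 0.63 and 1.11 ± 0.15). PTGS2 went from 3054, 24113, 59.6, 632 and 1259 to 110155, 115228, 90739, 83165 and 74801 normalised counts. The treated libraries lay close together, while the controls ranged from 59.6 in line 3 to 24113 in line 2. The receptors PTGER4 and PTGIR rose (log2-fold changes 3.03 ± 0.16 and 1.89 ± 0.36), and PTGDR, a receptor for prostaglandin D2 outside the list, (5.36 ± 0.59). The prostacyclin synthase PTGIS and the uptake transporter SLCO2A1 fell (log2-fold changes -3.20 ± 0.29 and -4.997 ± 0.63). The constitutive cyclooxygenase PTGS1 was at 0.069. PTGES was not DE without line 3 (log2-fold change of 0.96).

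Ion channels and other receptors moved in both directions. Of 37 tested potassium channel genes 13 fell and 3 rose (median -0.33). Of the rises 1 passed the filter only through the IL-1β libraries. KCNK5, a background potassium channel, rose from 3529.8, 4638, 614, 257 and 542 to 17398, 11969.7, 9495, 5665 and 10385 normalised counts (log2-fold change 3.27 ± 0.47), and KCNMB1, a subunit of the calcium-activated channel of smooth muscle, fell (log2-fold change -3.22 ± 0.38). Among 44 orphan and adhesion receptors 7 rose and 11 fell, with 4 rises without the line term. Here 1 rise and 1 fall passed the filter only through the group in which they were high. After GPR84, GPR18 rose in all 5 lines (3.88 ± 0.32), and the adhesion receptor ADGRL3 and the receptor GPR1 fell (log2-fold changes -4.62 ± 0.43 and -4.02 ± 0.49). The complement anaphylatoxin receptors C5AR1 and C3AR1 rose (log2-fold changes 3.09 ± 0.63 and 2.53 ± 0.63) and C7 (1.06 ± 0.19), while the complement inhibitors CD55 and CFI fell (log2-fold changes -4.32 ± 0.71 and -1.72 ± 0.29). In all, 3 of 12 complement genes rose and 2 fell, against 1 and 2 without line 4. C3AR1 was not DE without line 4 or 5 or without the line term (adjusted p 0.055 to 0.16), nor was C7 without line 4 (log2-fold change of 0.93).

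Most genes that handle iron changed. Of 12 genes for zinc, iron and copper handling 6 rose and 4 fell (median 1.15). The iron importer SLC11A2 (DMT1) went from 808, 1369, 889, 999 and 821 to 5537, 4765, 6252, 5093 and 4988 normalised counts (log2-fold change 2.47 ± 0.15, adjusted p = 0.00021), and the spread within each group was under 2 times. The transferrin receptor TFRC, the ferritin chains FTH1 and FTL and ceruloplasmin (CP) rose (log2-fold changes 1.96 ± 0.17, 2.70 ± 0.28, 2.04 ± 0.15 and 3.05 ± 0.37), and the zinc exporter SLC30A1 (1.31 ± 0.089). The iron exporter ferroportin (SLC40A1) and the metal reductases STEAP1 and STEAP2 fell (log2-fold changes -1.21 ± 0.26, -1.03 ± 0.30 and -1.09 ± 0.21). The siderophore-binding protein LCN2 fell (log2-fold change -2.08 ± 0.54). The falls of the list numbered 2 without line 3, 0 without line 4 and 1 without line 5. Ferritin heavy chain genes have near-identical copies, and FTH1 was far lower in both libraries of line 5, at 729.8 and 3884, than in the other lines, so its level is uncertain. FTH1 was not DE without the line term (adjusted p = 0.13), nor was SLC40A1 without line 4 (log2-fold change of -0.94), nor was STEAP1 without line 3, 4 or 5 or without the line term (adjusted p 0.054 to 0.092). STEAP2 was not DE without line 4 or 5 (log2-fold change from -0.97 to -0.94), nor was LCN2 without line 3, 4 or 5 (adjusted p 0.06 to 0.07).

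Of 22 antioxidant enzymes 7 rose and 1 fell. The mitochondrial superoxide dismutase SOD2 went from 10195, 12448, 8176, 10481 and 6451 to 85675, 75276, 117575, 73116 and 47081 normalised counts (log2-fold change 3.04 ± 0.18), with no overlap. The thioredoxin system followed with TXNRD1 (2.40 ± 0.18), TXN (1.23 ± 0.21) and PRDX1 (1.11 ± 0.11), together with haem oxygenase HMOX1 (1.67 ± 0.22), NQO1 (1.297 ± 0.13) and glutathione reductase GSR (1.20 ± 0.12). The secreted glutathione peroxidase GPX3 fell (log2-fold change -2.93 ± 0.38), while cytosolic SOD1 (0.27) and catalase (CAT, -0.74) were not DE.

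Transporters of nutrients and ions rose and fell in equal number. Of 231 tested solute carrier genes 27 rose and 27 fell (median 0.092), so the upregulated share was 11.7% and the downregulated share 11.7%, against 6.0% and 10.2% of all genes. Of the falls 1 passed the filter only through the controls. Besides SLC7A2, the monocarboxylate transporter SLC16A6 and the sodium-calcium exchanger SLC24A4 rose (log2-fold changes 6.17 ± 0.92 and 5.44 ± 0.28). Amino acid transporters were found at both ends: the cystine importer SLC7A11 and the neutral amino acid transporter SLC7A8 rose (log2-fold changes 2.02 ± 0.42 and 2.59 ± 0.28), and SLC38A1, SLC1A4, SLC1A5, SLC7A1 and SLC7A3 fell (log2-fold changes -2.76 ± 0.38, -2.67 ± 0.24, -1.43 ± 0.22, -1.22 ± 0.26 and -3.11 ± 0.57). These were picked from the family after their values were seen. Asparagine synthetase ASNS and the glutathione-degrading enzyme CHAC1, targets of the amino acid response factor ATF4, fell (log2-fold changes -2.07 ± 0.23 and -2.40 ± 0.36). ASNS went from 6443, 4137, 7801, 9656 and 10048 to 1835, 1945, 1195, 1651 and 2219 normalised counts. The secretory stress list showed no common direction otherwise, with 1 of 20 genes up and 3 down, or 5% and 15% against 6.0% and 10.2% of all genes. The chaperone HSPA5 was at 0.39 and ATF4 itself at -0.15. Without line 3 or without line 4 no gene of that list rose.

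Energy and lipid metabolism genes moved in both directions. Of 28 glycolysis and hypoxia genes 7 fell and 2 rose. The hypoxia-responsive genes NDRG1 and CA9 and the lactate exporter SLC16A3 fell (log2-fold changes -2.25 ± 0.36, -2.25 ± 0.47 and -1.95 ± 0.46), while the glucose transporter SLC2A6 and the glycolytic regulator PFKFB3 rose (log2-fold changes 1.99 ± 0.12 and 1.63 ± 0.27), and GAPDH was at -0.027. Of 66 respiratory chain and ATP synthase genes 60 lay above 0 (median 0.22) and 49 had an unadjusted limma p below 0.05. Only NDUFA4L2 was DE (1.52% against 16.2% of all genes), with a fall of -2.85 ± 0.63. NDUFA4L2 is a hypoxia-induced relative of a chain subunit. Cholesterol genes leaned upwards, with 18 of 19 above 0 and a median of 0.68, but 2 were DE, among them FDPS (1.49 ± 0.22), an enzyme of the mevalonate pathway. Without line 1, 5 of them were DE. KLF15, a transcription factor of fat and glucocorticoid responses, went from 25.3, 29.7, 18.6, 24.8 and 18.6 to 932, 340.2, 264, 373 and 326 normalised counts (log2-fold change 4.06 ± 0.26, adjusted p = 0.00021), and CEBPB and ADIPOQ rose (log2-fold changes 1.54 ± 0.12 and 1.10 ± 0.33), which made 3 rises and no fall in 11 genes of fat storage and adipogenesis. ADIPOQ was not DE without line 2, 3, 4 or 5 or without the line term (adjusted p 0.054 to 0.4).

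Of 12 retinoid and steroid enzymes and binding proteins 2 rose and 2 fell, the falls numbering 4 without line 4 and 1 without line 5. Among them HSD11B1, the enzyme that regenerates active glucocorticoid, rose from 285, 40.7, 68.02, 359.6 and 105 to 2276, 1317, 7499, 2407 and 683 normalised counts (log2-fold change 4.03 ± 0.63). The glucocorticoid receptor NR3C1 rose (log2-fold change 1.21 ± 0.083), PPARA (1.28 ± 0.11) and the orphan receptors NR2F1 and RORB (1.23 ± 0.24 and 2.65 ± 0.53), so 4 of 24 nuclear receptors rose. The oestrogen receptor ESR1 was the one that fell (-3.14 ± 0.30), from at most 114 normalised counts in a control. The retinoic acid-binding protein CRABP1 went from 147, 397, 1116, 1413 and 857 to 1.22, 6.54, 4.17, 31.3 and 5.97 (log2-fold change -6.39 ± 0.36), and CRABP2 was at -0.38. RDH10, which starts retinoic acid synthesis, rose (log2-fold change 1.17 ± 0.15). Of 18 clock genes only CRY2 was DE (-1.11 ± 0.14), which is 5.56% against 16.2% of all genes. In all, 14 of the 18 lay below 0, and the number of DE genes ranged from 1 to 4 as lines were left out. In the chromatin list 3 of 19 fell (15.8%) and 1 rose (5.26%), against 10.2% and 6.0% of all genes, too few to read a result from. The falls were led by HDAC9 (-2.71 ± 0.44) and TET1 (-1.35 ± 0.22), and 1 of the 3 passed the filter only through the controls. The rise was KDM5B (1.002 ± 0.081), and 2 genes of the list were DE without line 1 or without line 4. RORB was not DE without the line term (adjusted p = 0.054), nor was RDH10 without line 3 (log2-fold change of 0.99), nor was KDM5B without line 1, 4 or 5 (log2-fold change from 0.96 to 0.99).

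Most genes of mitosis fell. Of 20 mitosis genes 15 fell and the median was -1.300; all 20 lay below 0. CENPF, a kinetochore protein, went from 3106, 2852, 891, 1018 and 1437 to 552, 561, 244, 409 and 685 normalised counts (log2-fold change -1.82 ± 0.23, adjusted p = 0.0014). Control values were highest in lines 1 and 2 and the treated values lay close together. ASPM, TTK, KIF11 and MKI67 fell (log2-fold changes -1.64 ± 0.27, -1.56 ± 0.27, -1.54 ± 0.25 and -1.37 ± 0.29), while CDK1 (-0.81) did not pass the threshold with all lines and did without line 5 (-1.13, adjusted p = 0.019). The list median in lines 1 to 5 was -1.85, -2.11, -1.21, -0.99 and -0.20, so line 5 changed least. Without the line term 7 of the genes were DE. Of 21 replication genes 21 lay below 0 (median -0.64), but only MCM5 (-1.09 ± 0.26) was DE, which is 4.76% against 10.2% of all genes. Replication genes that were DE numbered 0 without line 2, 0 without the line term, 3 without line 3 and 4 without line 5. The cyclin-dependent kinase inhibitors CDKN1A and CDKN2B rose (log2-fold changes 1.70 ± 0.15 and 1.60 ± 0.17), and CDKN1A went from 5824, 6201, 4932, 4774 and 6922 to 25143, 16369, 22688, 12726 and 18244 without overlap. CDKN1B (0.39) was not DE. 5 genes of that list were DE without line 1, without line 2 or without line 5, against 3 with all lines. MKI67 was not DE without the line term (adjusted p = 0.083), nor was MCM5 without the line term (adjusted p = 0.13) and without line 2 (log2-fold change of -0.80).

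Of 21 apoptosis regulators 3 rose and 1 fell, or 14.3% and 4.76% against 6.0% and 10.2% of all genes. The inhibitor of apoptosis BIRC3 rose from 8299, 7041, 2710.1, 840.4 and 889 to 64249, 23792, 25777, 17279.5 and 10527 normalised counts (log2-fold change 3.18 ± 0.33) and BIRC2 (1.01 ± 0.15), while the pro-apoptotic genes BIK and BMF changed (log2-fold changes 1.27 ± 0.28 and -1.35 ± 0.26). BAX (0.67) and FAS (-0.15) were not DE. Without line 5, 1 gene of the list rose. BIRC2 was not DE without line 1, 3 or 5 (log2-fold change from 0.93 to 0.98), nor was BIK without the line term (adjusted p = 0.086) and without line 5 (log2-fold change of 0.98).

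Interferon-induced and antigen presentation genes depended on the line. Interferons induce the proteasome, peptide transport and MHC genes that display antigens, with CIITA as the master regulator of MHC class II. None of 17 antigen presentation genes was DE by limma, with 4 at an unadjusted p below 0.05, and of 20 interferon-stimulated genes only RSAD2 was (1.72 ± 0.56), although all 20 lay above 0 (median 0.70). The lines differed in sign. The median log2 ratio of the interferon list was -1.12, 0.83, 2.72, 0.36 and 0.52 in lines 1 to 5 and that of the antigen presentation list was -1.31, 0.67, 2.67, 0.85 and 0.88. Line 1 was the one in which both fell, and line 3 the one in which both rose most. CD74, the invariant chain of MHC class II, was at 20907, 1395, 0, 28.6 and 1.25 normalised counts in the controls and 38.96, 197, 105, 13.5 and 4.17 with IL-1β. The line 1 control was thus far above all other libraries, and the line 3 control was listed at 0. CIITA, at 1024, 167, 0.961, 4.94 and 0 and 10.5, 33.7, 18.2, 4.10 and 0, and DRA, a class II chain, at 8053, 702, 0, 32.8 and 2.22 and 20.6, 98.4, 26.03, 3.01 and 0, were likewise highest in the controls of lines 1 and 2. DQA and GBP5 were, with CD74, DRA and PPWD1, the genes with the widest spread among those ranked that were not DE, with standard deviations of the within-line log2 ratio of 4.68 and 4.86, beside 5.75 for CD74 and 4.74 for DRA. Without line 1, 7 antigen presentation genes and 3 interferon-stimulated genes were DE, all upwards. Without line 3, DRA, which is not on the list, was DE downwards (-4.03, adjusted p = 0.039, against -2.27 with all lines). The log2-fold change of CD74 was -0.99 with all lines and 1.02 without line 1. Of the leukocyte markers, ITGAX was at 257, 279, 23.6, 92.6 and 77.3 in the controls and 241, 167, 48.4, 71.8 and 92.7 with IL-1β, highest in lines 1 and 2 in both groups. In the line 1 control CD14 was at 17.4, ITGAM at 8.76 and PTPRC at 0, and the part of other cells in these values was not tested. RSAD2 was not DE without line 1, 2, 4 or 5 (adjusted p 0.053 to 0.097).

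**Figure D3:**
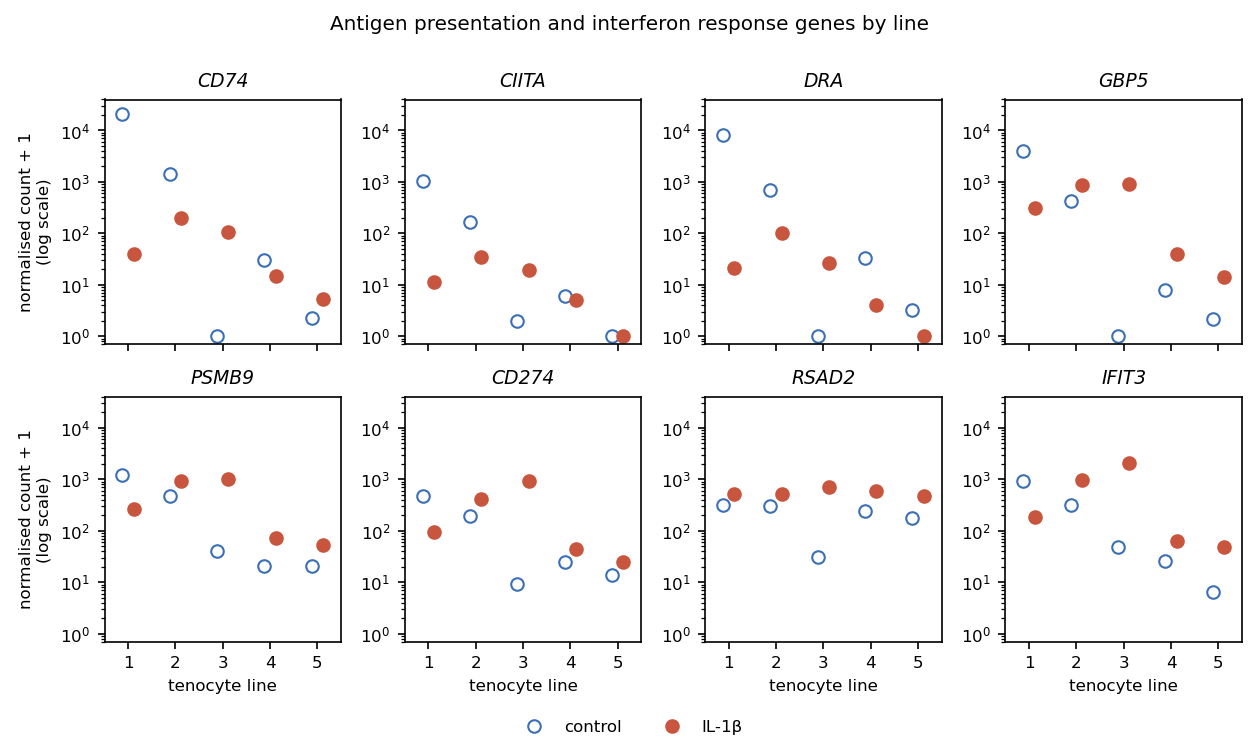
Normalised counts plus 1 (y axis, log scale) of 8 genes of antigen presentation and interferon response in the control (open) and IL-1β (filled) library of tenocyte lines 1 to 5 (x axis). For CD74 the line 1 control sits at 20907 and falls to 38.96, whereas in line 3 it goes from 0 to 105.

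Families of genes differed in how many members were DE. None of 79 cytosolic ribosomal protein genes was DE although 76 lay below 0 (median -0.39) and 68 had an unadjusted limma p below 0.05. None of 22 intraflagellar transport and BBSome genes was DE (median -0.11), with 7 at an unadjusted p below 0.05. Among 260 ZNF zinc finger genes 3 rose and 12 fell, which is below the share of all genes in both directions. Of the falls 1 passed the filter only through the controls. ZNF385D, the largest of these falls, went from 426, 181, 394, 225 and 263 to 7.60, 23.7, 11.1, 23.9 and 9.38 normalised counts (log2-fold change -4.28 ± 0.44). Without line 4, 9 zinc finger genes were DE. Of 40 TRIM ubiquitin ligases 6 fell (15%, against 10.2% of all genes), with TRIM29 at -2.66 ± 0.30 and TRIM9 at -2.55 ± 0.34, and 2 rose without line 1. Of 17 tested HOX genes, which mark body position, HOXD4, HOXD10 and HOXD11 fell (-1.13, -1.07 and -1.09). That is 17.6% against 10.2% of all genes, and none of the 3 was lower in all 3 lines of the second batch. Laminins gave 3 falls and 1 rise in 10 genes (40.00% DE against 16.2% of all genes), but between 0 and 3 were DE as lines 1 to 5 were left out, the lowest without line 3. Of 8 protocadherins PCDH7 alone rose (1.24 ± 0.37). HOXD4 was not DE without the line term (adjusted p = 0.057), nor was HOXD10 without line 5 or without the line term (adjusted p 0.057 to 0.18) and without line 1 (log2-fold change of -0.82), nor was HOXD11 without the line term (adjusted p = 0.082) and without line 1 (log2-fold change of -0.88). PCDH7 was not DE without line 4 or 5 or without the line term (adjusted p 0.09 to 0.14) and without line 3 (log2-fold change of 0.85).

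Proteases other than MMPs and their inhibitors divided as well. Of 24 ADAM and ADAMTS genes 4 rose and 9 fell, the falls numbering 5 without line 1 and 6 without the line term. ADAM8, a sheddase of inflamed tissue, went from 95.3, 224, 40.9, 21.1 and 41.3 to 3545, 2008, 540.4, 319.8 and 1603 normalised counts (log2-fold change 4.23 ± 0.34), and the aggrecan-cleaving ADAMTS4 and ADAMTS5 rose (log2-fold changes 2.49 ± 0.38 and 1.56 ± 0.15). ADAMTS6 showed the largest fall among them (-3.44 ± 0.22). Of 14 serpins SERPINB2, the plasminogen activator inhibitor 2, rose (log2-fold change 3.36 ± 0.79), and SERPINF1, SERPINF2, SERPINB5 and SERPINB6 fell (log2-fold changes -1.80, -1.57, -2.35 and -1.55). Of the falls 1 passed the filter only through the controls. SERPINB2 was not DE without the line term (adjusted p = 0.088), nor was SERPINF2 without line 4 or 5 (adjusted p 0.069 to 0.077).

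The size of the response differed between lines. The median log2 ratio over the upregulated genes was 1.70, 1.47, 1.97, 1.80 and 1.87 in lines 1 to 5, and over the downregulated genes -2.03, -1.42, -1.87, -1.51 and -1.71. Line 2 thus had the smallest median in both directions. These genes were chosen on the same values, so the medians are a description. The within-line log2 ratio had a median standard deviation of 0.71 over DE genes and 0.28 over all genes tested. The median standard deviation between lines on the log2 scale was 0.60 with IL-1β against 0.71 without for upregulated genes and 0.78 against 0.64. Among DE genes the widest spread was in PTGS2, MOXD1, HHIP, ENPP2 and OLFML1, and the narrowest in RPS6KA2, TMEM256, TMEM14A, TBC1D13 and AGTRAP. TBC1D13 illustrates the latter, with 2825, 3154, 3594, 2870.4 and 3146 normalised counts in the controls and 6643, 6517, 7659.8, 5615 and 6433 with IL-1β (log2-fold change 1.07 ± 0.06). PPWD1 also varied widely without being DE, but it switched between values near 900 and a listed 0 in libraries of both groups, so its values are given only as listed.

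**Figure D4:**
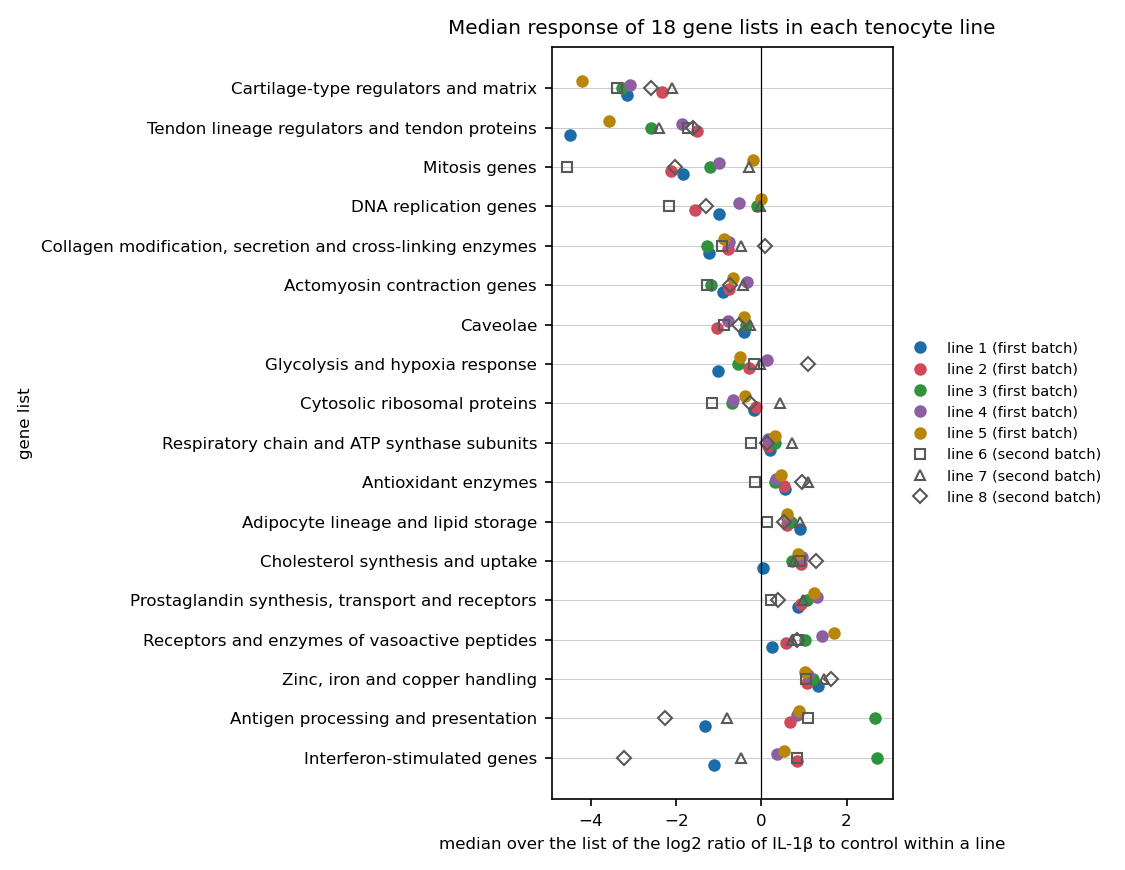
Median over each of 18 gene lists of the log2 ratio of IL-1β to control within a line (x axis), with filled circles for lines 1 to 5 and open symbols for lines 6 to 8 of the second batch. Cartilage-type and tendon lineage genes lie below 0 in all 8 lines and metal handling genes above 0 in all 8, while antigen presentation and interferon-stimulated genes lie on both sides.

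The second batch gave values for the same contrast in lines 6 to 8, which the labels give as a second batch and which were normalised separately, so the 2 batches are set side by side without a test. Of 14262 genes tested in both, 20.1% were higher and 19.8% lower with IL-1β in all 3 of these lines. Of the genes upregulated in lines 1 to 5, 675 of 850 (79.4%) were higher in all 3, and of those downregulated 985 of 1376 (71.6%) were lower in all 3. Metal handling genes had list medians of 1.05, 1.47 and 1.64 in lines 6 to 8, prostaglandin genes 0.23, 0.98 and 0.39 and mitosis genes -4.56, -0.29 and -2.01. All 6 metal handling rises were higher in all 3 lines, but only 1 of the 4 falls was lower in all 3. Of the rises tested in both batches, 3 of 6 nucleotide and adenosine genes and 3 of 5 vasoactive peptide genes were higher in all 3. The 5 falls of the former list and the 1 fall of the latter were lower in all 3. ADORA2A was at 2.78, 4.55 and 6.66 in lines 6 to 8, ADORA1 at 2.89, -0.40 and -1.46 and BDKRB2 at -1.63, 0.58 and -1.38. Of 6 tenocyte markers that fell in the first batch 2 were lower in all 3, and of 3 TGF-β genes 1. COL1A1, COL1A2, ACTA2, CTGF and ADAMTS2 were lower in lines 6 and 7 but higher in line 8 (0.58, 0.84, 0.41, 0.44 and 0.15). The interferon list was at 0.84, -0.48 and -3.23 and the antigen presentation list at 1.09, -0.82 and -2.26, again with lines of both signs. Glycolysis and hypoxia genes were at -0.16, -0.031 and 1.10, and only 2 of the 7 genes that fell in the first batch were lower in all 3 lines. None of the 3 secretory stress genes that fell was lower in all 3, with ASNS at -3.23, -0.22 and 0.40 and CHAC1 at -2.85, -0.12 and 2.24. SLC7A2 was at 8.28, 9.97 and 11.21, SOX5 at 2.41, 3.20 and 4.49 and CRABP1 at -4.31, -3.72 and -1.94.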

How the data were processed

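The deposited values are signal values, gene counts normalised by the authors within each batch, so tests were made within the first batch only. Per the submitters' processing notes the tools were FastQC, MultiQC, Salmon, R 4.2.1 and DESeq2 1.36. The authors quantified reads against the EquCab3.0 transcriptome, which splits reads between near-identical copies by estimation. Of the low values, 70.3% to 76.0% per library lay within 0.1 of a whole multiple of 1 read, so whole reads could not be recovered and no count model was used. Raw depth is not held in these values.

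Genes that reached 10 normalised counts in 5 or more of the 10 libraries were tested with limma 3.58.1 in R 4.3.3 (empirical Bayes with trend) on log2(normalised count + 1), a scale that understates the change of low genes. The tenocyte line entered as a block, since each line gave 1 library per condition; the study's methods state no such term, and the fit without it is an alternative. Libraries of the same line, that is of the same donor, deviated together from their group means (correlations of 0.35 to 0.58, against -0.36 to 0.29 between lines). Genes with an adjusted p (Benjamini-Hochberg over all genes tested) below 0.05 and a log2-fold change of at least 1 in either direction were called DE. The fit was tested on simulated data.

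The gene lists and the genes named were chosen with earlier results of these data known. Named genes were the 15 largest rises and falls and the 10 lowest p-values, up to 4 DE genes of each list or family changed the same way in all 5 lines, up to 10 genes at or below 3 normalised counts in every library of 1 condition and at 10 or more in the other, the 5 widest and narrowest spreads between lines, and further members given to account for the rest. Cytokines, MMPs, LOC names and names turned into dates were left out of the ranking, as were second copies of a name, the last after their values were seen. Of the gene names, 23397 (80.1%) matched RefSeq symbols, and 24 listed genes had no row under their symbol. Tables were handled in Python 3.11.15. The alternatives were the fit without the line term, pseudocounts of 0.1 and 10, no filter, a filter at 50, median centring, no trend, a robust fit, adjusted p alone and leaving out each line. The IL1Ra libraries were not used here, and some genes that meet these rules are not reported here.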

Additional observations from a re-analysis of the deposited data

Results flagged for a closer look

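Among 306 named genes, the within-line log2 ratio of IL-1β to control had 1 line far from the other 4 in 24, by Dixon's test at the 95% level. Chance alone would pick out about 1 in 20 such groups of 5 values. The value of the outlying line is given with the range of the other 4.

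In line 3 the 11 genes were KCNA1 (-6.92 against -2.32 to -0.60), MCAM (-2.78 against -1.58 to -1.14), MYH11 (-2.18 against -0.96 to -0.52), PFKFB3 (2.99 against 1.12 to 1.41), RDH10 (1.86 against 0.85 to 1.08), RHCG (2.30 against 5.30 to 6.33), RSAD2 (4.52 against 0.66 to 1.4), SERPINH1 (-0.88 against -0.31 to -0.14), SFRP2 (-7.28 against -3.91 to -3.07), SLC7A2 (10.45 against 7.87 to 8.55) and TRIM67 (-3.55 against -1.59 to -0.80). SLC7A2 rose and SFRP2, KCNA1 and TRIM67 fell further in line 3 than in any other line.

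In line 1 the 8 genes were CDKN2B (0.81 against 1.71 to 1.92), CTGF (-2.63 against -1.80 to -1.54), HSPA5 (0.97 against 0.21 to 0.27), MGP (-6.82 against -2.67 to -1.72), MOXD1 (-9.16 against -3.96 to -2.05), P2RY1 (4.60 against 1.52 to 2.38), PTGDS (2.39 against 5.47 to 6.57) and SERPINF2 (-3.58 against -1.41 to -0.71). MGP, MOXD1 and SERPINF2 fell more in line 1, CTGF fell more as well, and P2RY1 rose more. PTGDS and CDKN2B rose less in line 1 than elsewhere.

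In line 2 they were HOXD4 (-0.27 against -1.48 to -1.21) and SAV1 (-0.89 against -1.47 to -1.35), both smaller falls than in the other lines. In line 5 they were BMF (-2.58 against -1.26 to -0.85) and SLC2A6 (2.51 against 1.75 to 1.95). In line 4 it was SERPINB5 (-4.95 against -2.19 to -1.32). None of the named genes with 1 direction in lines 1 to 5 had the opposite direction in all of lines 6 to 8, a comparison that was not tested.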

How the results depend on the processing

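The number of DE genes was 2386 (883 up and 1503 down) and stayed within 1.5 times of that in every alternative fit, from 1813 with a filter at 50 to 2892 with no filter. With each line left out in turn it ranged from 2135 to 2358, with 774 to 887 up and 1335 to 1488 down. With adjusted p alone, which has no fold threshold by construction, 6363 genes passed, 3073 up and 3290 down. Without the line block, that is without pairing, 1885 genes were DE (722 up and 1163 down), and 1877 of them were DE with it. Median centring gave 902 up and 1478 down. Of 306 named genes, 32 lost their call without the block, 8 with a pseudocount of 10, 11 with no trend and 12 to 30 as 1 line was left out, and the cause was not tested. The signs that turned belonged to genes that were not DE, with these ranges of the log2-fold change over the fits without 1 line: AXIN2 (-0.47 to 0.079), BDNF (-0.075 to 0.48), CD74 (-2.92 to 1.02), CIITA (-2.24 to 0.20), GAPDH (-0.093 to 0.045), GDNF (-0.0029 to 0.31), ITGAX (-0.23 to 0.20), PPWD1 (-2.49 to 2.39), PTGS1 (-0.26 to 0.48), SRF (-0.011 to 0.18) and YAP1 (-0.077 to 0.012). PTGS1 was also at -0.031 and ITGAX at -0.019 with a pseudocount of 10. Of the lists, 3 respiratory chain genes were DE with no filter, against 1 with it. With a filter at 50, 3 of 19 nuclear receptors were DE against 5 of 24, 3 of 10 serpins against 5 of 14, 9 of 21 potassium channels against 16 of 37, where fewer genes were tested. Low values limit the genes near 0, and 5 lines limit the power.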

Other observations

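Genes without a symbol took part as well. Of 2222 tested names that begin with LOC, 327 were DE, and they are not named here. Of the 14477 names below the filter, 7827 were listed at 0 in all 10 libraries. The DE genes that moved against the common direction in a line were counted by line. Among downregulated genes, 8, 29, 15, 11 and 12 were higher with IL-1β in lines 1 to 5, so line 2 had the most exceptions. Among upregulated genes, 9, 6, 14, 2 and 6 were lower with IL-1β in lines 1 to 5, with line 3 the highest.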
